A study of Mus musculus with 3 samples.

Results

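Transcripts of Emp1 and 5 relatives, Emp2, Emp3, Pmp22, Perp and Tmem47, were described in sorted mouse muscle stem cells. All 6 genes had a row among the 20308 genes of the deposited table. The genes were chosen by their family membership around the very high TPM of Emp1 in these libraries, so the members' levels are given as a description and were not tested. Satellite cells, the stem cells of skeletal muscle, of Pax7-ZsGreen mice aged 3 months had been released from hindlimb muscle with collagenase and dispase and sorted for ZsGreen fluorescence. In this strain the fluorescent protein reports Pax7, the transcription factor that marks satellite cells, so the sort fixes that gene's presence. The samples formed 1 group of 3 libraries, each from muscle of several animals, with no treated, mutant or undissociated group. As tissue the sample labels give tibialis anterior, while the series text speaks of hindlimb muscles. Separate pools of animals are not stated for the 3 samples, and the p-values therefore cover the spread among these samples alone, which may be technical.

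The PMP22 family consists of small glycoproteins that cross the membrane by 4 helices. PMP22 itself is a component of compact myelin in peripheral nerve, where changes in its gene dosage cause inherited neuropathy. The epithelial membrane proteins EMP1, EMP2 and EMP3 are its closest relatives, act in adhesion and growth control, and are found in many cell types. PERP and TMEM47 are more distant relatives. PERP is a target of p53 and p63 and sits in the desmosomes of epithelia, and TMEM47 is found at cell junctions.

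The 6 genes lie on 6 chromosomes, and their coding sequences share only short identical runs. In GENCODE M21 on GRCm38, Emp1 spans 135362545 to 135383173 on chromosome 6 and Emp2 spans 10281749 to 10313968 on chromosome 16. Emp3 spans 45918023 to 45921404 on chromosome 7 and Pmp22 spans 63128982 to 63159547 on chromosome 11. Perp spans 18845020 to 18857073 on chromosome 10 and Tmem47 spans 81070698 to 81097872 on chromosome X. The coding sequences held 160 codons for Emp1, 172 for Emp2, 163 for Emp3, 160 for Pmp22, 193 for Perp and 181 for Tmem47. Over aligned bases, the Emp1 coding sequence was 70.6% identical to that of Emp2, 66.6% to Emp3, 64.9% to Tmem47, 62.1% to Pmp22 and 58.8% to Perp. Bases opposite gaps were left out: Tmem47 had 276 identical of 425 aligned bases, and Pmp22 had 285 of 459. The identity of unrelated coding sequences was not measured, so the order of these percentages does not rank kinship. The runs below are the longest identical stretches between pairs of coding sequences, shown to give the extent of exact identity within the family.
Emp1 and Emp2, 14 bases: catgatcctctcca
Emp1 and Pmp22, 13 bases: ccagctcttcact
Emp2 and Pmp22, 22 bases: catcctggcctgggtggccttt
Emp2 and Emp3, 15 bases: cctggcctgggtggc
The Emp2 and Emp3 run is contained in that of Emp2 and Pmp22, and Emp3 and Pmp22 share the same 15 bases. Across whole coding transcripts, 0 of 2691 words of 31 bases in Emp1 occurred in a transcript of another annotated gene, and the count was also 0 for Emp3, Pmp22 and Perp. Emp2 had 1.40% of such words in common with transcripts of 139 other genes. Tmem47 had 11.01% of them in common with transcripts of 954 other genes, Emp2 included. The longest run shared by the coding sequences of Emp2 and Tmem47 was 11 bases, shorter than such a word. How reads from the shared words were assigned is not given.

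The stretches before RefSeq transcript starts were compared because Emp1 differed most from its relatives in level. RefSeq, on GRCm38.p6, gave 10 start windows for 5 of the members (all except Perp), and the 250 bases before each start were searched on both strands for 5 motifs, whose matches may overlap one another. These were the AP-1 motif TGANTCA, the E-box CANNTG of basic helix-loop-helix factors, the TATA box motif TATAAA, the CCAAT box and the motif of SP factors, GGGCGG. Capitals mark TGANTCA. Bases inside an annotated exon of the same gene were left out of the lines. The Emp1 windows and the printed Pmp22 window lie inside the GENCODE span of their gene, not before it.
Emp1, chr6:135362708-135362903, plus strand: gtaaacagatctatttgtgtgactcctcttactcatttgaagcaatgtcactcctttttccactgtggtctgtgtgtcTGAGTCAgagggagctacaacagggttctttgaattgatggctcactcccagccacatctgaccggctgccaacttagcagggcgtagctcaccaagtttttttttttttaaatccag
Emp2, chr16:10313969-10314218, minus strand: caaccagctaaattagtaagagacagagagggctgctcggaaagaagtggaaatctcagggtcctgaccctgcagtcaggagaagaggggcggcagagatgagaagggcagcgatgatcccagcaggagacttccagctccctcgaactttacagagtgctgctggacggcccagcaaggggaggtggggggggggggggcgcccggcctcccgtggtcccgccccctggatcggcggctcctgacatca
Pmp22, chr11:63131207-63131456, plus strand: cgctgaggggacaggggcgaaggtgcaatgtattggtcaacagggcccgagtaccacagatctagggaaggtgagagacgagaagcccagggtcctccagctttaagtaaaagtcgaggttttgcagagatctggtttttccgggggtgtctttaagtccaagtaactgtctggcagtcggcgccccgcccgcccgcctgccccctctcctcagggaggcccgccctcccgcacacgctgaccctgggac
E-box letters were found in 66.2% of all RefSeq windows, TATAAA in 12.4% and the CCAAT box in 33.8%. The first Emp1 window held 2 E-box matches and 0 of TATAAA. The Emp3 window at the start at 45921426 held 2 E-box matches and 1 of TATAAA. The Tmem47 window and the Pmp22 window at the start at 63132569 held 1 E-box match each. The Pmp22 windows at the starts at 63128982 and 63131457, the latter printed, held 1 CCAAT match each. The Emp1 window that ends at the start at 135362931 held 2 matches to TGANTCA, whose first bases lay 145 and 25 bases before the start. The nearer match falls in an annotated exon and is not printed. Of 32851 RefSeq windows of the same length, 6.75% held at least 1 match and 0.338% held 2 or more. The other member windows, including the second Emp1 window, held 0 matches. The 2 Emp1 windows had 44.4% and 45.6% G and C, below the 52.4% median of all windows. The 2 Emp3 windows had 52.0% and 56.8%, the 4 Pmp22 windows between 48.8% and 73.6%, the Emp2 window 62.8% and the Tmem47 window 65.6%. GGGCGG, found in 32.7% of all windows, had 2 matches in the Emp2 window, 2 in that of Tmem47 and 3 each in 2 of the 4 Pmp22 windows, the printed one included. It had 0 in the other Pmp22 windows and in the windows of Emp1 and Emp3. These letters are a description of the sequence; binding at these windows was not measured.

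Levels are given as TPM, a length-corrected share of each library's transcripts, which lets genes be set side by side. The values keep no read totals, and the depth of each library is unknown. Among 12822 genes with any value above 0, 60.8% were called above 1 TPM and 2.18% below it (limma, adjusted p under 0.05). Of 12 satellite cell markers, among them Myod1 and Sdc4, 12 were above 1 TPM, with a list median of 295 TPM. Pax7, at a mean of 51.4 TPM, is among the 12, and its presence was fixed by the sort. Means are given ± SD over the 3 libraries (n = 3).

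Emp1 was one of the most abundant transcripts of these cells. It stood at 6129, 7070 and 6069 TPM in replicates 1, 2 and 3, which gives 6423 ± 561 TPM. The 3 libraries lay close together, with replicate 2 highest and 1.16-fold above the lowest. Emp1 ranked 8, 6 and 10 among all genes in the respective libraries. By mean level it took rank 8, between the chaperone Hsp90ab1 at 6827 ± 564 TPM and the RNA helicase Ddx5 at 5731 ± 62.3 TPM. Emp1 alone held 0.642% ± 0.0561 of all TPM. Its level was 1.55 ± 0.121 times that of the satellite cell proteoglycan gene Sdc4 in the same library.

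**Figure D1:**
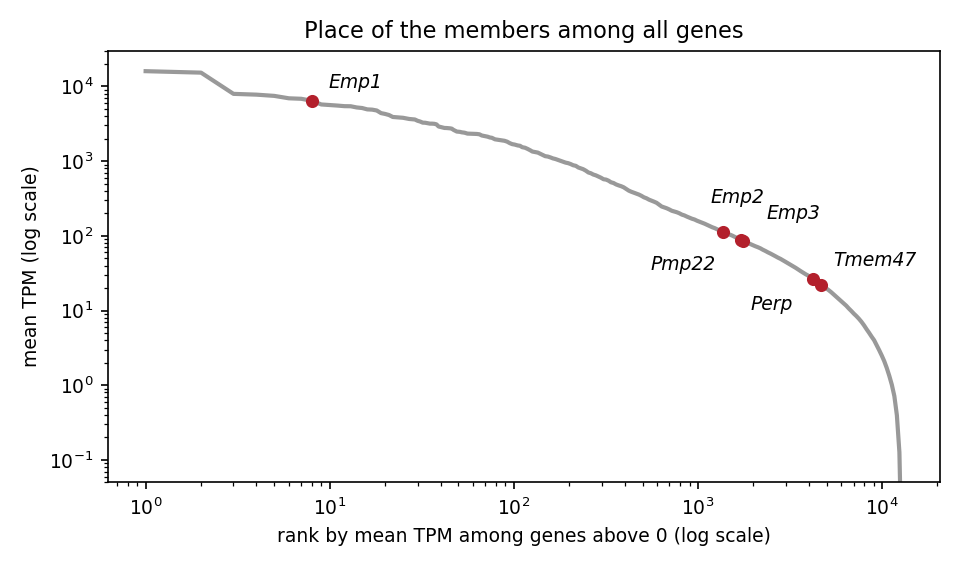
Mean TPM of each gene against its rank among all genes above 0, both axes on a log scale. The grey line is the curve over all such genes and the red points are the 6 members: Emp1 lies at rank 8, and its relatives lie between rank 1368 (Emp2) and rank 4685 (Perp).

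The other epithelial membrane protein genes and Pmp22 were present at levels far below Emp1. Emp2, whose product is linked to integrin and focal adhesion kinase signalling, stood at 97.5, 120 and 119 TPM, or 112 ± 12.7 TPM. It was the steadiest of these relatives, and its lowest library was replicate 1. Emp3, the shortest family gene by exon length, stood at 60.7, 71.7 and 131 TPM, or 87.7 ± 37.7 TPM. Pmp22, the myelin gene, stood at 62.8, 74.9 and 122 TPM, or 86.4 ± 30.98 TPM. For both genes replicate 3 was the highest library, and replicates 1 and 2 lay close together. The means of the 3 genes lay above those of 86.4% (Pmp22) to 89.3% (Emp2) of the tested genes.

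The junction-linked members were the lowest. Tmem47 stood at 12.5, 31.9 and 35.4 TPM, or 26.6 ± 12.4 TPM, with replicate 1 apart from the other two. Perp stood at 15.1, 17.7 and 33.4 TPM, or 22.1 ± 9.88 TPM, with replicate 3 apart from the other two. Even these genes had means above those of 67.3% (Tmem47) and 63.5% (Perp) of the tested genes.

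**Figure D2:**
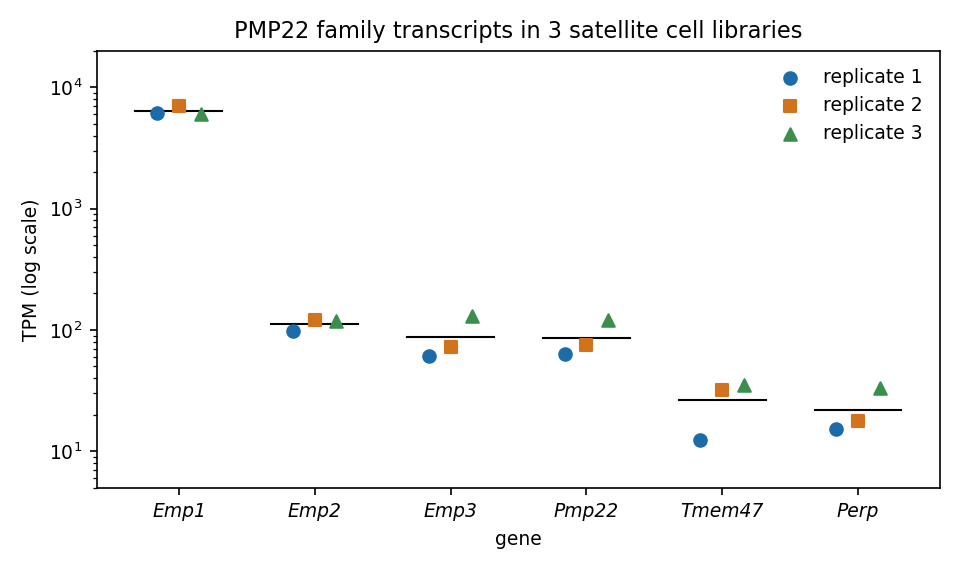
TPM on a log scale for each member in replicates 1, 2 and 3 (points), with the mean as a horizontal line. The Emp1 points lie between 6069 and 7070 TPM, and those of all other members lie between 12.5 and 131 TPM.

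In order of mean level the members formed 3 steps. Emp1 exceeded Emp2, the next, 57.3-fold by mean TPM and by 5.84 ± 0.150 on the log2(TPM + 0.1) scale, in 3 of 3 libraries. Emp2, Emp3 and Pmp22 formed the second step and did not differ beyond their spread. The log2 ratio of Emp2 to Emp3 was 0.68, 0.75 and -0.14 in replicates 1 to 3, so the order turned in replicate 3, and the ranges over libraries overlapped. Emp3 and Pmp22 stood at nearly equal levels in each library, with log2 ratios of -0.05, -0.06 and 0.11. Pmp22 exceeded Tmem47 by 1.78 ± 0.547 (log2), in every one of the 3 libraries and without overlap of their ranges. Tmem47 and Perp formed the third step, with log2 ratios of -0.28, 0.85 and 0.09 and overlapping ranges.

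Emp1 supplied most of the family's transcripts. The 6 members summed to 6378, 7387 and 6509 TPM, of which Emp1 was 96.1%, 95.7% and 93.2%, or 95.02% ± 1.55. The other 5 together summed to 249, 317 and 440 TPM. Replicate 3 was thus highest for the sum of the relatives, and Emp1 had its lowest share there. The ratio of Emp1 to that sum was 24.7, 22.3 and 13.8.

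Emp1 and Emp2 had the smallest spread between libraries of the 6 members. On the log2 scale the SD was 0.12 for Emp1 and 0.17 for Emp2, against 0.49 for Pmp22, 0.58 for Emp3, 0.60 for Perp and 0.82 for Tmem47. Low genes vary more, so each SD was set beside those of the 200 genes nearest in mean level. The SD of Emp1 exceeded that of 65.0% of its neighbours in level, that of Emp2 35.5%, and that of Perp 62.5%. The SD of Emp3 exceeded 93.0% of its neighbours, that of Tmem47 86.5% and that of Pmp22 85.5%. With 3 values, leaving out the library farthest from the others always lowers the SD, so only the size of the fall is described. Without replicate 3 the SD was 0.17 for Emp3, 0.18 for Pmp22 and 0.16 for Perp. It was 0.02 for Emp2 and 0.11 for Tmem47 without replicate 1, and 0.01 for Emp1 without replicate 2. For every member but Emp1 the SD rose without replicate 2, to 0.78 for Emp3 and 1.06 for Tmem47.

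Replicate 3 was the highest library for 4 of the 6 members, replicate 2 for Emp1 and Emp2, and replicate 1 for 0. Among other genes of at least 10 TPM, 30.0% were highest in replicate 3, 34.7% in replicate 2 and 35.3% in replicate 1. It stood at 1.98 times the mean of the other libraries for Emp3, 2.04 times for Perp, 1.76 times for Pmp22 and 1.60 times for Tmem47. Of the 6759 other genes at that level, 11.6% had replicate 3 more than 1.5 times above the mean of the others. Emp1, in contrast, stood at 0.920 times that mean. Without replicate 3, Emp3 averaged 66.2, Pmp22 68.9, Tmem47 22.2 and Perp 16.4 TPM. The pattern was noticed in these values and was not tested.

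Markers of other cells also differed between the libraries. Their counts above 1 TPM stand beside a share of 60.8% among all genes tested. The 12 endothelial markers, all above 1 TPM, summed to 1979, 1615 and 2933 TPM, of which the fatty acid carrier Fabp4 made up most. Without Fabp4 the other 11 summed to 229, 259 and 346 TPM, and 7 of the 12 were highest in replicate 3. Of 10 fibre markers, 5 were above 1 TPM (55.6% of those tested) and Myh2 was at 0 in all libraries. The call of Myh1 was lost under some alternatives (limma adjusted p up to 0.252). The fibre list summed to 159, 178 and 248 TPM. None of the 10 epithelial markers was called above 1 TPM: 7 were undecided, and Epcam, Esrp1 and Cldn7 were at 0 in all libraries. The epithelial list summed to 9.62, 4.10 and 19.2 TPM. The keratin Krt19 supplied 6.31, 0.24 and 14.3 TPM of it. The part of these cell types in the levels of Emp3, Pmp22, Perp and Tmem47 was not tested. In such sorted bulk samples, fewer cells of a type and less RNA per cell cannot be told apart.

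The sums of the other marker lists were highest in replicate 1 or 2. The satellite cell list summed to 8681, 8771 and 8245 TPM, lowest in replicate 3. Of 12 fibro-adipogenic markers, 8 were above 1 TPM, or 66.7% of those tested, beside 60.8% of all genes tested. The other 4, Pdgfra, Lum, Pi16 and Clec3b, were undecided, with Pdgfra at 4.98, 0.11 and 0.06 TPM. The fibro-adipogenic list summed to 2709, 2722 and 2362 TPM, with a mean of 2598 TPM. Gsn, Col3a1 and Dpt made up most of it, at means of 888, 585 and 572 TPM. Of 7 tendon markers, 6 were above 1 TPM (85.7% of those tested), with a sum of 258, 342 and 232 TPM. Of 11 leukocyte markers in the table, 4 were above 1 TPM (40% of those tested), with a sum of 235, 363 and 288 TPM. The call of Kera (tendon) was lost without replicate 3 and that of Ptprc (leukocyte) without replicate 2 (limma adjusted p up to 0.0642 and 0.057). The 14 Schwann cell markers summed to 460, 381 and 377 TPM, but without Egr2 the other 13 summed to 167, 131 and 198 TPM, highest in replicate 3. The leukocyte gene Tyrobp was at 0 in all libraries. Of 10 mural markers, 7 were above 1 TPM (70% of those tested) and the list summed to 1677, 1638 and 1644 TPM. Desmin (Des), which is also a satellite cell marker, made up 1157, 1185 and 1151 TPM of the mural sum.

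**Figure D3:**
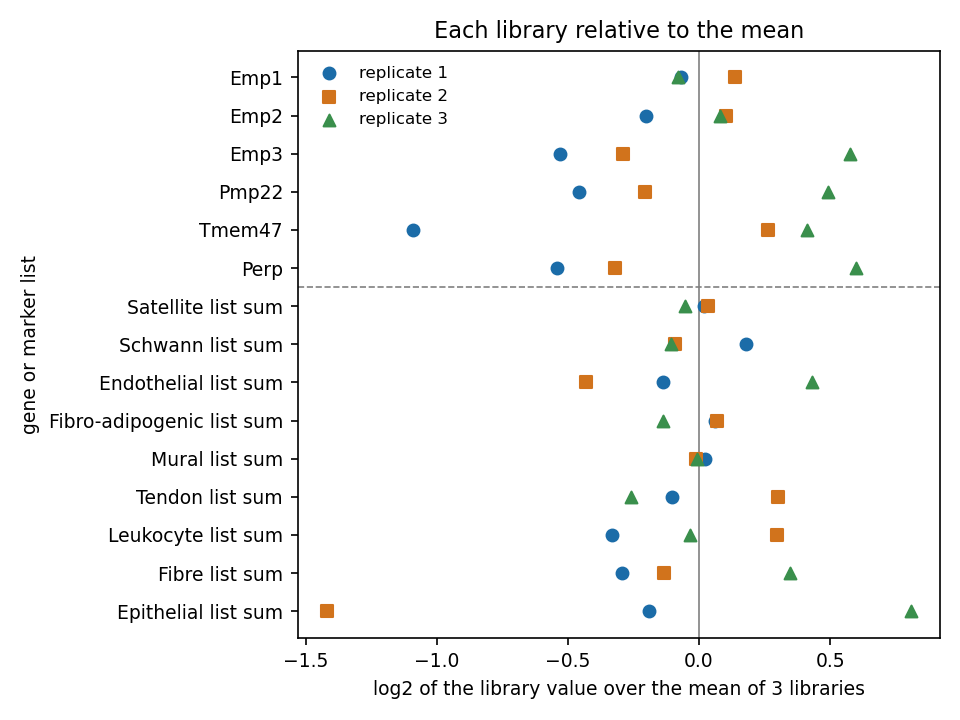
Log2 of each library's value over the mean of the 3 libraries, for the members (above the dashed line) and for the summed TPM of each marker list (below it). Replicate 3 (green triangles) lies to the right for Emp3, Pmp22, Tmem47 and Perp and for the endothelial, fibre and epithelial sums, and lies near 0 for Emp1 and Emp2.

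The genes nearest to each member over the 3 libraries were found by the root mean square difference of log2(TPM + 0.1). With 3 libraries this measure reflects mostly the level, and many genes can lie close. Hsp90ab1 lay 0.19 from Emp1, at 6443, 6563 and 7475 TPM, and 5 genes lay within 0.25 of Emp1. Ubap2l lay 0.05 from Emp2, at 94.4, 125 and 123 TPM, and 182 genes lay within 0.25 of Emp2. The proton pump subunit gene Atp6v1g1, at 55.4, 77.6 and 133 TPM, was nearest to Emp3 (0.10) and second nearest to Pmp22 (0.13). Thoc7 was second for Emp3 (0.12), and the telomere protein gene Terf1 was first for Pmp22 (0.13). Perp lay closest to C1qtnf9 (0.04) and Wbscr22 (0.07), and Tmem47 to Rnf125 (0.04) and Ttc7b (0.12).

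The wider superfamily holds the claudins, channel gamma subunits and LHFP proteins. Of 48 listed relatives in the table, 32 (66.7%) were at 0 in all libraries, beside 36.9% of all genes in the table. Of the rest, 9 were above 1 TPM, 7 were undecided and 0 were below 1 TPM (limma, Benjamini-Hochberg). Those above are 56.2% of the 16 tested, beside 60.8% of all genes tested, and the list median was 0 TPM against 2.24 TPM for all genes in the table. The highest was Cldn25, a name that RefSeq lists as an older symbol of Cldnd1, at 335 ± 56.0 TPM. Lhfp followed at 94.8 ± 6.05 TPM, and Cldn5, the claudin of endothelial tight junctions, at 46.2 ± 20.3 TPM. The values of Cldn5 were 25.8, 46.4 and 66.4 TPM, highest in replicate 3. The others above 1 TPM averaged between 5.78 TPM (Tmem178b) and 30.4 TPM (Lhfpl2). Emp1 was 19.5 ± 2.84 times Cldn25 and 11.2 ± 0.862 times the sum of the whole list. Of all transcripts of the members and the list together, Emp1 made up 87.5% ± 1.34. The calls of Tmem178b, Cacng4 and Lhfpl4 were each lost without at least 1 replicate (highest limma adjusted p over the alternatives 0.187, 0.0845 and 0.084).

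Genes whose products are known to bind, process or signal with these proteins were mostly present. Of 23 listed partners, 18 were above 1 TPM and 5 were undecided (limma, Benjamini-Hochberg), 78.3% beside the 60.8% of all genes tested. The list median was 35.9 TPM, against 11.5 TPM for all genes tested. Integrin beta 1 (Itgb1), a partner of EMP2 at the cell surface, was the highest at 964 ± 66.3 TPM. Emp1 exceeded it 6.66 ± 0.258-fold within each library. The other integrin subunits were low: Itga6 averaged 22.5 ± 9.72, Itgb5 18.8 ± 4.82 and Itgb4 6.49 ± 1.63 TPM. Itgb3 was undecided at 1.65, 0 and 1.63 TPM.

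Kinases and membrane partners varied in level. Ptk2, which encodes focal adhesion kinase, averaged 28.8 ± 2.74 TPM, while Src was undecided at 0.79, 2.29 and 2.59 TPM. Its relative Fyn averaged 67.9 ± 24.7 TPM. The caveolin gene Cav1 reached 451 ± 95.9 TPM, and Cav2 22.1 ± 7.28 TPM. Cav1 stood at 362, 438 and 552 TPM, highest in replicate 3. The growth factor gene Vegfa, which EMP2 is known to regulate, averaged 567 ± 45.6 TPM. The ATP receptor gene P2rx7, whose product binds EMP proteins, stood at 13.3, 4.62 and 2.13 TPM (limma adjusted p = 0.0374). Its call was lost without replicate 1 and with 2 of the other alternatives (adjusted p up to 0.348).

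Genes that handle PMP22 in the secretory pathway were measured as well. The chaperone gene Canx averaged 621 ± 56.3 TPM and the retrieval receptor gene Rer1 84.4 ± 25.9 TPM. The ubiquitin ligase gene Syvn1 averaged 35.9 ± 7.57 TPM, Sec24c averaged 46.6 ± 14.5 TPM, and Rnf5 was undecided at 0, 5.77 and 0.34 TPM. Of the polarity partners of TMEM47, Prkci averaged 70.4 ± 6.14 TPM, and Pard6b was undecided at 0.54, 0.89 and 1.86 TPM.

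The Schwann cell markers, listed for the myelin context of Pmp22, differed in level. Of 14 Schwann cell markers, 6 were above 1 TPM, 6 were undecided and 2, Mag and Gfap, had no signal in any library. Those above are 50% of the markers tested, beside 60.8% of all genes tested. The calls are from limma with Benjamini-Hochberg adjustment. The list median was 4.02 TPM, against 2.24 TPM for all genes in the table. The highest was Egr2, a myelination factor that is also an immediate-early gene, at 241 ± 57.4 TPM. Mbp, which encodes myelin basic protein, stood at 48.3, 32.01 and 54.8 TPM, or 45.03 ± 11.7 TPM. Sox10, which defines the Schwann lineage, was undecided at 2.64, 1.23 and 0 TPM. Pmp22 was 1.95 ± 0.568 times Mbp. The part of Schwann cells in the Pmp22 level was not tested.

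Genes of cell junctions, where the PERP and TMEM47 proteins act, were counted by class, with no test between the classes. Of 28 listed genes, 11 were above 1 TPM, 2 below, 8 undecided and 7 at 0 in all libraries (limma, Benjamini-Hochberg), or 52.4% above among those tested, beside 60.8% of all genes tested. The list median, genes at 0 included, was 1.27 TPM, against 2.24 TPM for all genes in the table. Of 6 cadherins and catenins, 5 were above 1 TPM. The highest were Ctnnb1 (beta-catenin) at 812 ± 46.5 TPM, Ctnna1 at 333 ± 21.7 TPM and Ctnnd1 at 267 ± 30.5 TPM. Of 12 desmosome genes, 2 were above 1 TPM, 3 were undecided, 5 were at 0 and 2 were below 1 TPM. Those above were Jup, which is shared with adherens junctions, at 59.7 ± 19.3 TPM and Pkp4 at 234 ± 13.96 TPM. Desmoplakin (Dsp), which ties intermediate filaments to desmosomes, was undecided at 0.82, 0.04 and 2.77 TPM. The 2 below were Pkp3, at 0.12, 0 and 0 TPM, and Dsc3, at 0, 0.07 and 0 TPM (limma adjusted p = 0.0316 and 0.0236). Both calls were lost with a pseudocount of 0.01 and without replicate 3 (adjusted p up to 0.544 for Pkp3 and 0.528 for Dsc3). Dsp, Jup, Pkp4, Pkp3 and Dsc3 were named after their values were seen. Of the 10 tight junction and polarity genes, 4 were above 1 TPM.

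Perp's known regulators differed in level. Trp53, which encodes p53, averaged 51.4 ± 18.1 TPM and stood at 50.1, 70.1 and 33.9 TPM. Trp63 was undecided at 0, 0 and 0.80 TPM, and Trp73 was at 0 in all libraries. Of 22 genes of the p53 list in the table, 19 were above 1 TPM, 2 were undecided and 1 was at 0 (limma, Benjamini-Hochberg). That is 90.5% of those tested, beside 60.8% of all genes tested. The list median, the gene at 0 included, was 40.2 TPM, against 2.24 TPM for all genes in the table. The calls of Bax, Ccng1, Zmat3 and Rrm2b were each lost under some alternative (limma adjusted p up to 0.0706, 0.0639, 0.154 and 0.23). The highest of the list were the stress gene Gadd45a at 1062 ± 186 TPM, the growth arrest gene Btg2 at 568 ± 98.1 TPM and the cell cycle inhibitor Cdkn1a at 299.9 ± 27.1 TPM. Perp, at 22.1 TPM, lay below the median of that list.

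**Figure D4:**
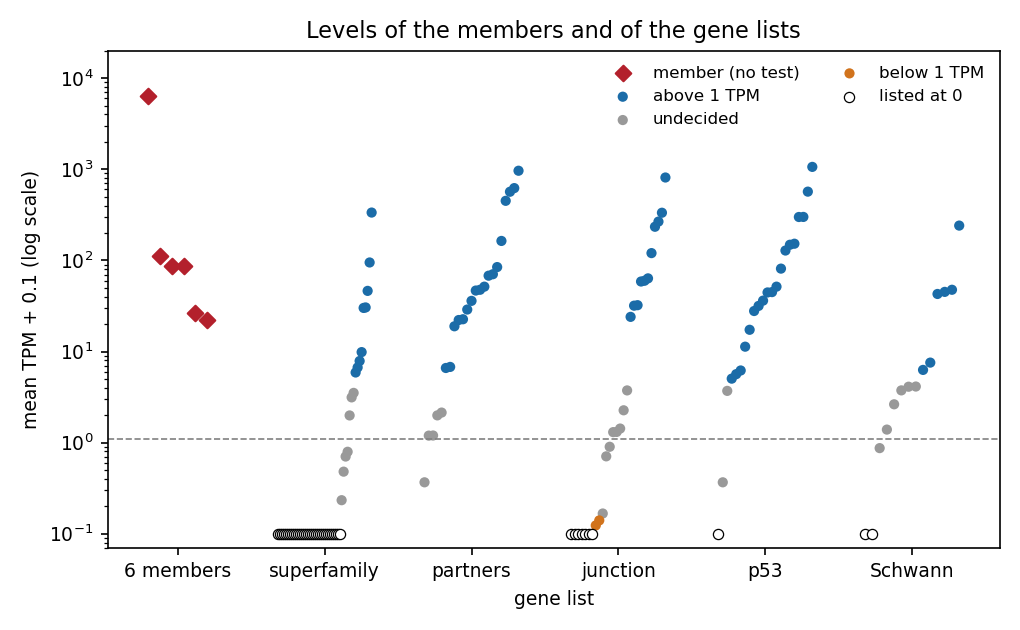
Mean TPM plus 0.1, on a log scale, for the members (red diamonds, no test) and for each gene of the 5 lists, with filled blue points above 1 TPM, grey points undecided, orange points below 1 TPM and open circles at 0 in all libraries. Emp1 lies above every gene of the lists shown, and the superfamily list has 32 genes at 0.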

How the data were processed

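RNA had been isolated with a Picopure kit from sorted ZsGreen-positive cells, per the labels' protocols. The authors deposited 1 table of TPM with 1 column per library, and per the file headers the columns match the 3 sample titles. The submitters' processing notes name RSEM 1.2.3, Bowtie 0.12.9, CASAVA 1.8 and the build mm10. How each was used, the annotation and the strand setting were not given in the sources used here. Each TPM column sums to between 999999.85 and 1000000.3, and the table, renormalised without mitochondrial genes per its name, lists 0 symbols that start with mt-. TPM keeps no depth, a 0 can be a failed estimate, and no counting interval is given.

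Levels were tested on log2(TPM + 0.1), which understates folds of low genes. limma 3.58.1 in R 4.3.3 tested the 12822 genes that exceeded 0 in any library against 1 TPM (two-sided, variance trend, Benjamini-Hochberg over all genes, threshold 0.05), a procedure tested on simulated data. Members' levels were not tested. Alternatives were other pseudocounts, a filter on low genes, other variance priors, quantile normalization and leaving out each replicate. A further alternative was rescaling without the 100 highest genes other than Emp1, which was kept. Coding sequences and 31-base words came from GENCODE M21 transcripts, aligned with Biopython 1.88 and searched on both strands. Genes named are the members, the 2 nearest genes to each member, all partners, the 3 highest of each list other than the cell type markers, and others named to describe a list after their values were seen. Not every gene under this rule is reported here. Members and lists were chosen with earlier results of these data known. In the table, 27 symbols had become dates and are not named.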

Additional observations from a re-analysis of the deposited data

How the results depend on the processing

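Of 150 values recomputed under the alternatives, 134 stayed close: levels and ratios within the spread between replicates, counts and SDs within 1.5 times. Of the 16 that moved, 8 were SDs with a replicate left out. The number of genes below 1 TPM was 279. It became 451 (pseudocount 1), 3 (pseudocount 0.01), 478 (no variance trend), 0 (only genes averaging 0.1 TPM or more), and 0 without replicate 1, without replicate 2 or without replicate 3; the cause was not tested. The mean level of Emp1 was 9560 TPM after rescaling without the 100 highest genes other than Emp1, which was kept. That shift follows from dividing by a smaller total. Leaving out each replicate in turn gave between 6099 and 6599.8 TPM for Emp1 and between 94.5% and 95.9% for its share of the family. The median SD of the members ranged from 0.17 (without replicate 3) to 0.73 (without replicate 2). No paired analysis was possible because the 3 libraries form 1 group. The unknown depth limits statements on genes near 0.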
